A study of Ovis aries with 7 samples.

Results

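Core and associated proteins of the spliceosome are described here at the mRNA level in 8-cell embryos of the sheep, Ovis aries. Members were all rows of the deposited table whose gene symbol begins with SNRPA to SNRPG, SF3A or SF3B and a digit, LSM, PRPF, SRSF or U2AF and a digit, and 60 of 31304 rows met that rule. The study collected 3 libraries of fertilized embryos from IVF (in vitro fertilization) and 4 of SCNT embryos (somatic cell nuclear transfer, where the egg's nucleus is exchanged for that of a somatic cell). All were made from polyA RNA with Smart-seq2, a full-length cDNA method for very little RNA. The sources used here give neither the number of embryos in a library nor the breed nor the donor cell, and they tie no library to a separate culture or trial, so part of the spread between libraries may be technical. Values below come from the 3 IVF libraries only. The table also holds 4 columns whose names differ from every sample label. They were not used, so the SCNT libraries were not analysed here and no SCNT to IVF difference is given.

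The spliceosome removes introns from nuclear transcripts. Small nuclear ribonucleoproteins (snRNPs) named for their RNAs, U1, U2, U4, U5 and U6, assemble on each intron, where U1 and U2 mark its ends and branch point before the U4/U6 and U5 particle joins and the catalytic centre forms. A ring of Sm proteins encircles most of these RNAs, a related Lsm ring holds U6, and SR proteins bind exons and help recruit the snRNPs. In early embryos the machinery is first supplied by the egg and later by transcription from the embryo's own genome, and at this stage stored and new RNA are measured together. The naming rule also takes in proteins that do other work: LSM1 serves mRNA decay, LSM10 and LSM11 serve histone RNA processing, LSM14A and LSM14B serve RNA storage, and PRPF4B is a kinase.

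Levels are TPM, a share of each library's transcripts after division by gene length, a scale meant for setting different genes side by side. The sources used here name neither the annotation nor the counting tool. The length divided out and the handling of reads shared between genes are therefore not known, and comparisons between genes depend on both. Sequencing depth cannot be read from TPM, and counting intervals are therefore not given. Each column summed to 1000000. The markers fixed for the labelled material were found: 8 of 10 oocyte and early embryo genes reached 1 TPM in each of the 3 libraries, and the list summed to 2189, 2131 and 1615 TPM in replicates 1, 2 and 3. Of 10 fibroblast markers 2 reached that level in all libraries, and the list summed to 11.9, 19.4 and 15.8 TPM. Of 7 cumulus and granulosa markers 1 did, with sums of 10.7, 17.5 and 9.26 TPM and with PTX3 and FOXL2 listed at 0 in all libraries. None of 5 sperm markers did, with sums of 1.10, 3.28 and 1.94 TPM and with PRM1 and AKAP4 listed at 0. Over 6978 rows that averaged 5 TPM or more, the median row of replicate 2 lay 0.19 above the mean of the other libraries on the log2(TPM + 1) scale, against -0.07 for replicate 1 and -0.12 for replicate 3.

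All 60 members were expressed. Each had at least 1 TPM in all 3 libraries, a level that 31.4% of all rows and 49.0% of 16526 rows with a gene symbol reached. The median member stood at 72.2, 83.9 and 87.9 TPM in replicates 1, 2 and 3, a mean of 81.4 ± 8.17 (SD, n = 3). The median row with a symbol stood at 1.51 ± 0.212 TPM. Together the members took 1.79, 1.90 and 2.08% of all TPM. None was wholly inside another gene in the reference gene table, all averaged 5 TPM or more, and 26 were among the 1000 most abundant rows.

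**Figure D1:**
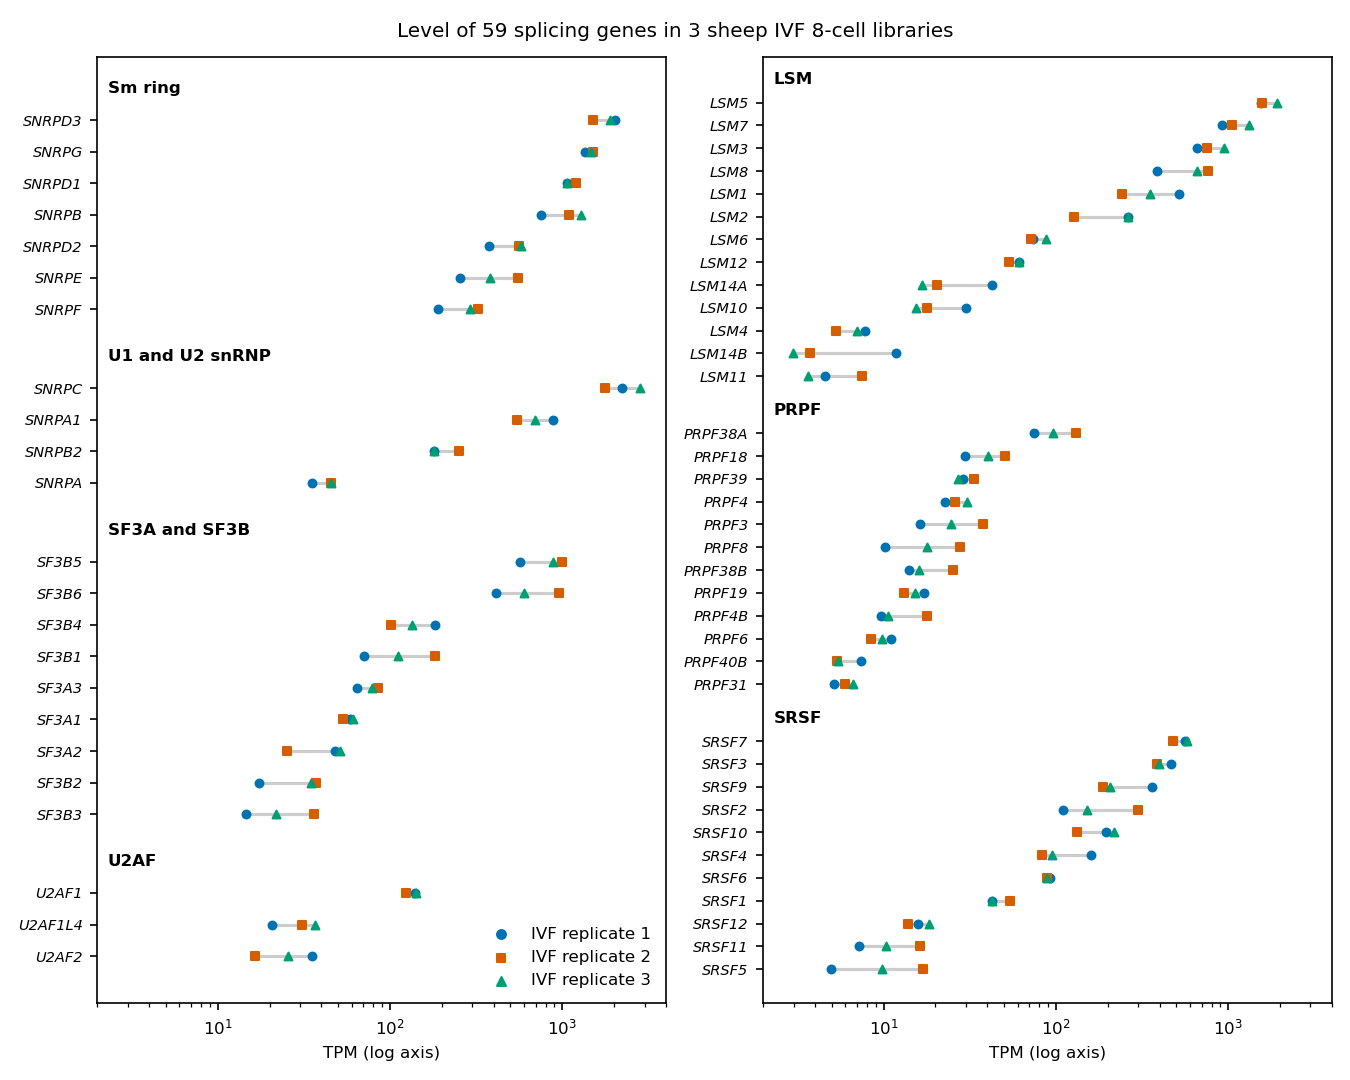
Level of 59 of the 60 members in the 3 IVF libraries, in TPM on a log axis, grouped by role and ordered by mean within a group; grey lines join the lowest and the highest library. Sm ring genes sit between 190 and 2014 TPM, whereas the PRPF genes drawn sit between 5.17 and 130.1 TPM.

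Sm and LSM genes carried most of the members' RNA. The 7 Sm ring genes held 34.2 ± 1.11% of the members' TPM and the 13 LSM genes 25.7 ± 1.24%. The 4 proteins specific to U1 or U2 held 16.8 ± 2.69%, SF3A and SF3B subunits 10.2 ± 2.53%, SR proteins 9.74 ± 1.36%, PRPF proteins 2.45 ± 0.517% and U2AF 0.992 ± 0.0974%. The 7 members with a mean of 1000 TPM or more, SNRPC, SNRPD3, LSM5, SNRPG, SNRPD1, LSM7 and SNRPB, held 54.3 ± 2.93% of the members' TPM. Members with a longer genomic span tended to have lower TPM, with a Spearman coefficient of -0.52 across the 60 genes, against -0.24 across 6934 matched rows that averaged 5 TPM or more. Genes are not independent replicates and share these libraries, so the coefficients are descriptions. The part played in them by the length used for TPM was not tested.

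The Sm ring is a heptamer that holds 1 copy of each subunit and forms on U1, U2, U4 and U5 RNA. SNRPD3 was the most abundant of the ring by mean, at 2014, 1504 and 1890.4 TPM in replicates 1, 2 and 3. SNRPG was at 1353, 1506 and 1473 TPM. SNRPD1 was at 1071, 1202 and 1066 TPM. SNRPG and SNRPD1 were even between libraries, and SNRPG exceeded SNRPD1 in 3 of 3 libraries. SNRPB, which in mammals is spliced to the B and B' proteins, was at 749, 1089 and 1289 TPM, overlapping SNRPD1. SNRPD2 was at 373, 561 and 576 TPM. SNRPE was at 254, 556 and 382 TPM. SNRPF was lowest in every library, at 190, 325 and 293 TPM. SNRPF shares 13.2% of its span with the protein-coding gene CCDC38 in the reference gene table. Replicate 1 was the lowest library for SNRPB, SNRPD2, SNRPE, SNRPF and SNRPG, while it was the highest for SNRPD3.

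Transcript levels of the equimolar ring thus spanned 10.6-fold, 4.64-fold and 6.45-fold between its highest and lowest subunit in replicates 1, 2 and 3. The largest step in the order was from SNRPB to SNRPD2, 1.04 ± 0.11 on the log2(TPM + 1) scale and positive in 3 of 3 libraries. Of 6 neighbouring steps, 4 exceeded their SD with the same sign in every library. Genes were ordered by their mean over these same 3 libraries, so such counts describe the order and lend it no independent support. They were not made for other genes. The steps from SNRPD3 to SNRPG (0.31 ± 0.29) and from SNRPD1 to SNRPB (0.13 ± 0.39) did not keep 1 sign. SNRPN, a close relative of SNRPB known from brain and from imprinting, is not a member by the rule and was at 1.88, 2.31 and 1.99 TPM, so SNRPB exceeded it by 8.38 ± 0.36 on the log2(TPM + 1) scale.

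Proteins specific to 1 snRNP differed more widely. SNRPC, the U1 protein that steadies pairing of U1 RNA with the donor splice site, was the most abundant of all members at 2229, 1760.3 and 2829.6 TPM. SNRPA, the U1 protein that binds a stem loop of U1 RNA, was at 35.0, 45.5 and 45.6 TPM. The U1 protein genes SNRPC and SNRPA therefore stood far apart in each library. SNRPA1 and SNRPB2 bind U2 RNA as a pair. SNRPA1 was at 882, 544 and 695 TPM. SNRPB2 was at 179, 252 and 180.5 TPM, below SNRPA1 in every library. SNRPA and SNRPB2 are paralogs, and SNRPA was lower by a difference of -2.24 ± 0.25 on the log2(TPM + 1) scale. All 3 neighbouring steps in this group, ordered in the same way, exceeded their SD with 1 sign in 3 of 3 libraries. SNRPA shares 18.6% of its span with the protein-coding gene MIA in the reference gene table, and the sources used here do not say whether reads were assigned by strand.

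Lsm proteins form 2 related rings, 1 nuclear with LSM8 on U6 RNA and 1 cytoplasmic with LSM1 that promotes decapping of mRNA, and both share LSM2 to LSM7. LSM5 was the most abundant LSM gene, at 1539, 1576 and 1909 TPM. LSM7 was at 924, 1057 and 1312 TPM. LSM3 was at 655, 755 and 942 TPM. In this trio replicate 1 was lowest and replicate 3 highest each time, and LSM7 exceeded LSM3 by an even step of 0.49 ± 0.01 on the log2(TPM + 1) scale. LSM2 was at 263, 128 and 260.4 TPM, low in replicate 2. LSM6 was at 73.7, 71.4 and 87.6 TPM. LSM4 was far below the rest of both rings in each library, at 7.81, 5.27 and 6.98 TPM. Within the ring of LSM2 to LSM8 the highest to lowest ratio was 197, 299 and 274 in replicates 1, 2 and 3, and it was 20.9, 22.1 and 21.8 with LSM4 left out, a step taken after its value was seen. LSM4 overlaps no other gene in the reference gene table, and reads it may share with near-identical copies elsewhere were not tested.

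The subunits that tell the 2 rings apart changed places between libraries. LSM8, the mark of the nuclear ring, was at 386, 763 and 663 TPM. LSM1, the mark of the decay ring, was at 521, 241 and 352 TPM. LSM1 was above LSM8 in replicate 1 and below it in replicates 2 and 3, and the difference of -0.71 ± 1.06 on the log2(TPM + 1) scale was smaller than its spread. Of 12 genes fixed as partners of the decay ring, 11 reached 1 TPM in every library. Of the 9 whose mean was 5 TPM or higher, 7 were highest in replicate 2 and 0 in replicate 1. Over all 6978 rows averaging 5 TPM or more, 49.3% were highest in replicate 2 and 34.7% in replicate 1. The 2 most abundant partners, PNRC1 and DCP2, were the 2 highest in replicate 3. PNRC1 was at 277, 334 and 352 TPM. DCP2 was at 54.9, 53.2 and 63.3 TPM, with replicate 2 lowest. PATL1, a bridge between the LSM1 ring and the decapping enzyme, was at 28.9, 57.5 and 35.3 TPM. DDX6, a helicase of the same machinery, was at 8.55, 12.9 and 6.45 TPM. DCP1B, a decapping cofactor, was the partner under 1 TPM, at 0.281, 0.233 and 0.0842 TPM.

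LSM10 and LSM11 replace SNRPD1 and SNRPD2 in the U7 snRNP, which cuts the ends of replication-dependent histone RNAs. LSM10 was at 29.9, 17.9 and 15.3 TPM. LSM11 was the least abundant member by mean, at 4.55, 7.52 and 3.65 TPM. Both lay far below the subunits they replace, by -5.71 ± 0.52 for LSM10 against SNRPD1 and -6.36 ± 0.52 for LSM11 against SNRPD2 on the log2(TPM + 1) scale, in 3 of 3 libraries. Among 9 histone RNA partners in the table, all at 1 TPM or more throughout, the exonuclease ERI1 was at 208, 153 and 177 TPM. SLBP, which binds the histone RNA stem loop, was at 199, 181 and 126 TPM. CPSF3, next by mean, was at 22.2, 43.1 and 27.7 TPM.

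LSM14A and LSM14B belong to storage granules that hold untranslated mRNA in oocytes and embryos. LSM14A was at 42.5, 20.4 and 16.7 TPM. LSM14B was at 11.8, 3.75 and 2.97 TPM. In both genes replicate 1 was highest and replicate 3 lowest, and LSM14A exceeded LSM14B by 2.03 ± 0.23 on the log2(TPM + 1) scale. Of 7 storage partners averaging 5 TPM or more, 5 were highest in replicate 2 and 2 in replicate 1. Over all rows at this mean these shares were 49.3 and 34.7%. CPEB1, which controls polyadenylation of stored mRNA, was among the 2 highest in replicate 1, at 363, 104 and 152 TPM, with replicate 2 lowest. ZAR1, an oocyte storage factor, was the partner not at 1 TPM throughout, at 1.82, 0.505 and 0.628 TPM. YBX1, a general mRNA packaging protein, was at 451, 474 and 379.6 TPM, highest in replicate 2. CAPRIN1 was at 32.2, 67.4 and 39.9 TPM, also highest in replicate 2. LSM12, a divergent Lsm protein, was even at 61.0, 53.5 and 61.1 TPM.

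SF3A and SF3B are the U2 subcomplexes that clamp the branch point. The 3 SF3A subunits were close to each other. SF3A3 was at 64.5, 85.3 and 78.6 TPM. SF3A1 was at 58.5, 53.3 and 61.3 TPM. SF3A2 was at 47.8, 25.3 and 51.2 TPM. Their order was the same in all 3 libraries, and the highest to lowest ratio was 1.35, 3.37 and 1.54, the widest value coming from low SF3A2 in replicate 2. SF3B was far less even, with ratios of 39.2, 27.5 and 40.9.

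Small SF3B subunits were the abundant ones. SF3B5 was at 569.7, 990.2 and 887 TPM. SF3B6, which lies near the branch-point adenosine, was at 409.8, 952 and 598 TPM. SF3B4, an RNA-binding subunit, was at 182, 102 and 133 TPM. Of these, SF3B5 and SF3B6 were lowest in replicate 1, and SF3B4 was highest there. SF3B1, the large scaffold of the clamp, was at 70.7, 182 and 112 TPM. SF3B2, which contacts the intron and SF3B4, was at 17.3, 37.3 and 34.8 TPM. SF3B3, the scaffold's propeller-shaped partner, was at 14.5, 36.0 and 21.7 TPM. SF3B1 and SF3B3 moved in parallel between libraries, so that their difference was 2.21, 2.31 and 2.31 in replicates 1, 2 and 3, a mean of 2.28 ± 0.06 on the log2(TPM + 1) scale. SF3B4 exceeded SF3B2 by 3.32, 1.42 and 1.91 in the same order. PHF5A, a small SF3B subunit outside the naming rule, was at 397, 1164 and 688 TPM, with the same order of libraries as SF3B6.

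U2AF recognises the end of the intron, U2AF2 through the polypyrimidine tract and U2AF1 through the terminal AG. U2AF1 was even at 140.4, 124 and 141 TPM. U2AF2 was at 35.0, 16.5 and 25.7 TPM, with replicate 2 lowest. The dimer's subunits stood 4.01-fold, 7.53-fold and 5.49-fold apart in replicates 1, 2 and 3. U2AF1L4, a paralog of U2AF1, was at 20.6, 31.0 and 36.8 TPM, and U2AF1 exceeded it by 2.71, 1.97 and 1.91 on the log2(TPM + 1) scale in replicates 1, 2 and 3. U2AF1L4 and U2AF2 overlapped, with a step of 0.21 ± 0.84.

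PRPF proteins had the lowest median of the 7 role groups, at 16.3, 26.0 and 17.8 TPM. PRPF38A, which enters with the U4/U6 and U5 particle, was at 74.7, 130.1 and 96.7 TPM. PRPF18, which acts in exon joining, was at 29.7, 50.5 and 40.4 TPM. Replicate 1 was lowest and replicate 2 highest in both of these genes. PRPF39, a U1-associated protein, was at 28.7, 33.6 and 26.9 TPM. SNRNP70, the U1 protein named here for comparison, was at 14.8, 13.0 and 20.1 TPM, and PRPF39 exceeded it by 0.87 ± 0.45 on the log2(TPM + 1) scale.

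The U4/U6 partners PRPF3 and PRPF4 were not separated. PRPF3 was at 16.3, 37.9 and 24.7 TPM. PRPF4 was at 22.7, 26.0 and 30.3 TPM. Their difference of -0.07 ± 0.52 on the log2(TPM + 1) scale had a different sign in replicate 2 than in replicates 1 and 3. PRPF31, which binds U4 RNA together with SNU13, was much lower at 5.17, 5.98 and 6.60 TPM. SNU13 was at 604, 1125 and 901 TPM. PRPF8, the large protein at the heart of U5 and the catalytic centre, was at 10.2, 27.8 and 17.8 TPM. PRPF6, which bridges U5 with U4/U6, was at 11.0, 8.46 and 9.74 TPM. The U5 proteins EFTUD2 and SNRNP200, outside the rule, were at a like level. EFTUD2 (a GTPase) was at 15.5, 27.5 and 17.5 TPM. SNRNP200 (the helicase that unwinds U4/U6) was at 7.68, 20.3 and 15.1 TPM. Other U5 proteins outside the rule were higher in each library, SNRNP40 at 82.8, 61.9 and 92.5 TPM and TXNL4A at 114, 52.8 and 82.9 TPM.

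PRPF19, the ubiquitin ligase of the complex named after it, was at 17.1, 13.2 and 15.1 TPM. PRPF4B, a kinase of splicing proteins, was at 9.71, 18.0 and 10.6 TPM. PRPF38B, a relative of PRPF38A, was at 14.1, 25.3 and 16.1 TPM. PRPF38A exceeded PRPF38B by an even 2.39 ± 0.11 on the log2(TPM + 1) scale. PRPF40B, a U1-associated protein, was at 7.36, 5.39 and 5.47 TPM. In the middle of the group, from PRPF39 to PRPF6, many neighbours overlapped. Again with genes ordered by their mean over these libraries, 5 of 12 neighbouring PRPF steps exceeded their SD with 1 sign in 3 of 3. The step from PRPF3 to PRPF8 (0.50 ± 0.10) was among them.

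SR proteins bind exonic enhancers and promote splice site choice. SRSF7 was the most abundant, at 562, 477 and 579 TPM. SRSF3, its close relative, was at 465, 387 and 394 TPM. SRSF3 was lower than SRSF7 by a difference of -0.38 ± 0.15 on the log2(TPM + 1) scale, with 1 sign in 3 of 3 libraries. SRSF9 was at 361, 186 and 207 TPM. SRSF1, a widely studied SR protein and relative of SRSF9, was at 42.8, 53.9 and 42.4 TPM. SRSF9 was therefore above SRSF1 in each library, with a log2 difference of SRSF1 against SRSF9 of -2.36 ± 0.64. SRSF1 shares 42.4% of its span with VEZF1 in the reference gene table.

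SRSF2 was among the least even members, at 109.8, 299 and 151 TPM. SRSF10, whose dephosphorylated form represses splicing, was at 195, 132 and 216 TPM. SRSF12, its paralog, was at 15.7, 13.9 and 18.4 TPM. SRSF10 exceeded SRSF12 by 3.40 ± 0.21 on the log2(TPM + 1) scale. SRSF4 was at 160.3, 82.6 and 95.5 TPM. SRSF6 was the most even member of all, at 92.1, 89.3 and 88.3 TPM. SRSF4 and SRSF6 were not separated, with a difference of 0.26 ± 0.47 that was positive in 2 of 3 libraries. SRSF11 was at 7.19, 16.3 and 10.3 TPM. SRSF5 was at 4.93, 17.0 and 9.80 TPM, the lowest SR protein by mean and low in replicate 1. SRSF5 shares 69.3% of its span with SLC10A1 in the reference gene table, and lay -3.12 ± 0.82 from SRSF6 on the log2(TPM + 1) scale.

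**Figure D2:**
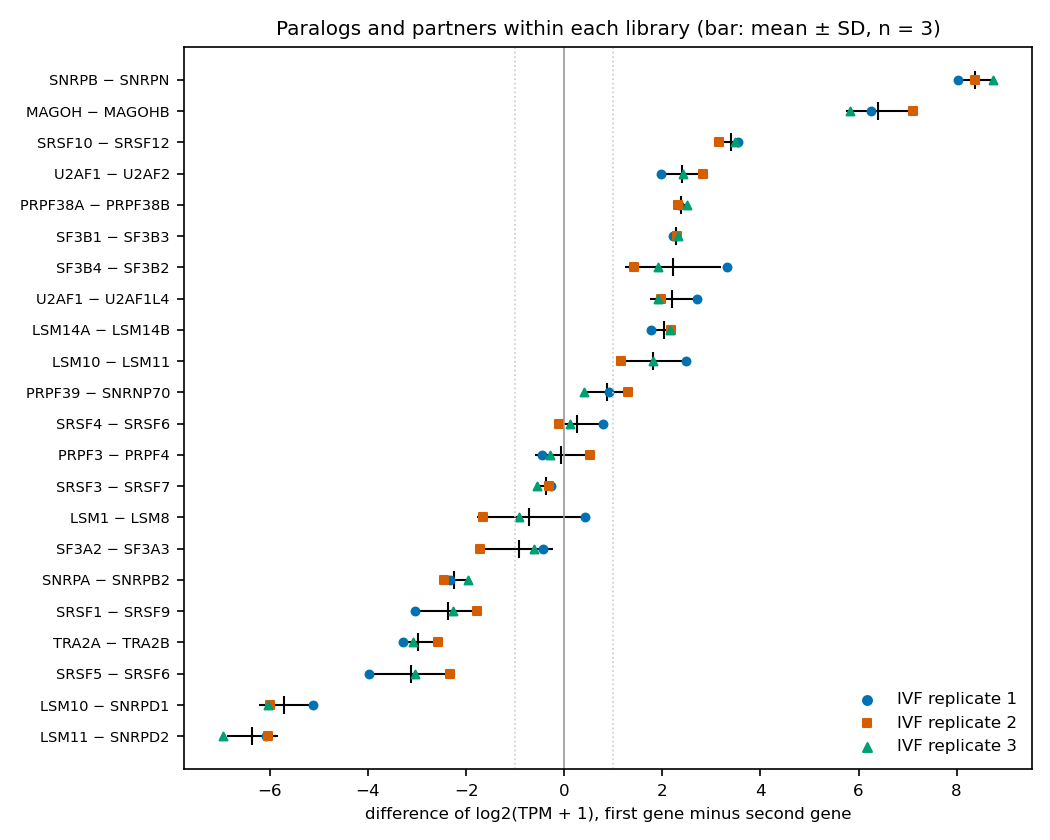
Differences of log2(TPM + 1) between the genes of 22 of the 23 fixed pairs, first gene minus second, with a point for each IVF library and a bar for mean ± SD (n = 3); dotted lines mark 2-fold. Pairs from SNRPB against SNRPN at 8.38 to LSM11 against SNRPD2 at -6.36 are shown, and PRPF3 against PRPF4, SRSF4 against SRSF6 and LSM1 against LSM8 cross 0.

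Of the 23 pairs of paralogs or partners with both genes in the table, 17 were 2-fold or more apart in the same direction in 3 of 3 libraries, and 20 kept 1 sign. The 3 that crossed 0 were LSM1 with LSM8, PRPF3 with PRPF4, and SRSF4 with SRSF6. The same count was not made for other pairs of genes, so it describes these pairs only. Outside the members, TRA2B, an SR-like splicing activator, exceeded its paralog TRA2A, with means of 334 and 40.7 TPM and a log2 difference of TRA2A against TRA2B of -2.98 ± 0.38. MAGOH, a subunit of the exon junction complex, exceeded MAGOHB by 6.39 ± 0.65, at means of 1814 and 21.4 TPM. With 3 libraries an exact two-sided sign-flip test could not give a p below 0.25, so no p-value is attached to any pair.

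Members were about as even between libraries as all 6978 rows averaging 5 TPM or more, which were not matched to them in level. At least 100 TPM in all 3 libraries was reached by 26 of 60 members and by 996 of those rows. On the log2(TPM + 1) scale the median member spanned 0.73 between its highest and lowest library, against 0.76 for all 6978 rows averaging 5 TPM or more. Highest and lowest library were 2-fold or more apart in 15 of 60 members (25.0%), against 31.6% of those rows and 28.8% of the rows with a symbol, so the members' share is near the background. Classes ranged from 0 of 4 U1 and U2 proteins and 1 of 7 Sm ring genes to 4 of 13 LSM and 4 of 9 SF3 genes. In 10 of the 15, replicate 2 was highest and replicate 1 lowest: SF3B1, SF3B2, SF3B3, SF3B6, PRPF3, PRPF8, SRSF2, SRSF5, SRSF11 and SNRPE. That pattern held for 14.9% of all rows at this mean and for 16.7% of members. In 3, LSM1, LSM2 and U2AF2, replicate 1 was highest and replicate 2 lowest (5.0% of members against 7.02% of rows). In the other two, LSM14A and LSM14B, replicate 1 was highest and replicate 3 lowest (3.33% against 3.01%). The remaining orders of the libraries, replicate 2 highest with 3 lowest and replicate 3 highest with 1 or 2 lowest, had 0 members, against 4.51, 1.25 and 0.974% of rows. Whatever the size of the difference, replicate 1 was the highest library for 17 members, replicate 2 for 25 and replicate 3 for 18 (28.3, 41.7 and 30.0%), against 34.7, 49.3 and 16.1% of rows. Without replicate 1 the count of 15 became 1, LSM2, and without replicate 2 it became 2, LSM14A and LSM14B. Without replicate 3 it stayed at 15. The share of all rows was not computed with a library left out. Over all rows at this mean, replicates 1 and 2 were also furthest apart. Their median absolute log2 difference was 0.60, against 0.38 for replicates 1 and 3 and 0.43 for replicates 2 and 3.

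**Figure D3:**
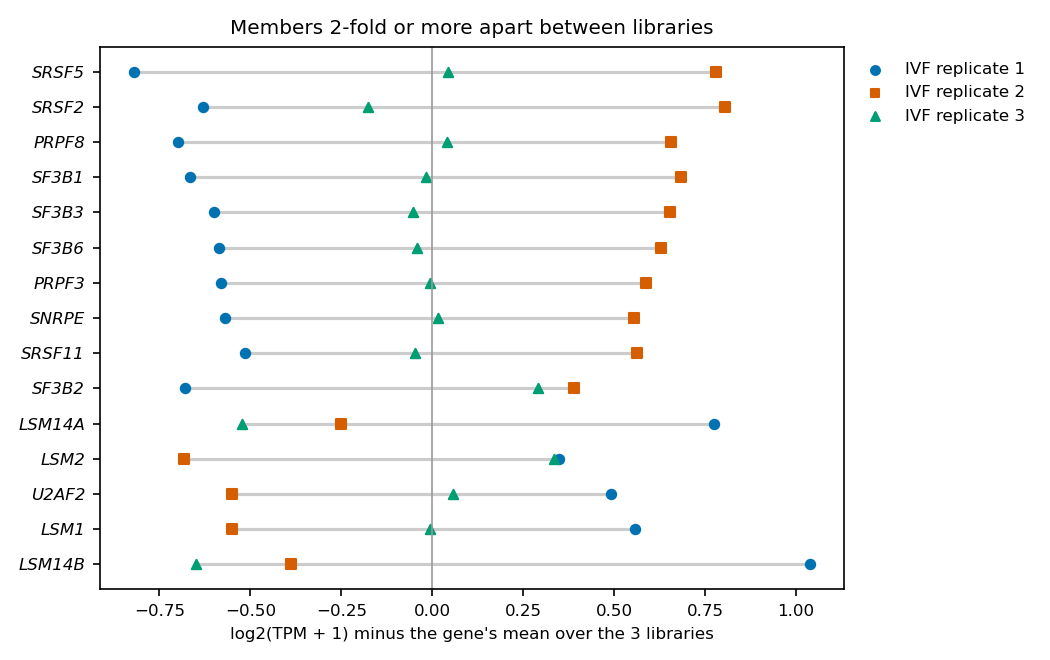
Values of the 15 members whose highest and lowest IVF library lay 2-fold or more apart, as log2(TPM + 1) minus the gene's mean over the 3 libraries; grey lines join the lowest and highest library. The 10 genes from SF3B2 up to SRSF5 have replicate 2 on the right and replicate 1 on the left, and the 5 others have replicate 1 on the right.

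Replicate 2, the library whose median row was highest, was not a library of high members. Members lay at a median of 0.01 above the mean of the other libraries there, with 30 of 60 higher, against 0.19 and 60.3% over all rows. It was 2-fold or more above the other libraries in 3 members, SF3B1, SRSF2 and SRSF5 (5.0%, against 12.8% of all rows), and 2-fold or more below in 1, LSM2 (1.67%, against 3.85%). By role, SF3 genes lay at a median of 0.48 with 6 of 9 higher and PRPF genes at 0.46 with 9 of 13 higher. LSM genes lay at -0.19 with 2 of 13 higher, and SR proteins at -0.14 with 4 of 11 higher. U2AF genes lay at -0.18 with 1 of 3 higher, and U1 and U2 proteins at -0.16 with 2 of 4 higher. Sm ring genes lay at 0.17 with 6 of 7 higher, but at -0.18 with median-of-ratios scaling. That scaling gave medians of 0.13 for SF3, 0.11 for PRPF, -0.53 for LSM, -0.49 for SR proteins, -0.53 for U2AF and -0.51 for U1 and U2 proteins. Of the 7 role groups, the Sm ring alone changed sign, under 1 of the 3 other scalings. In replicate 1, 2 members were 2-fold or more above the others, LSM14A and LSM14B (3.33%, against 5.65%), and 4 were 2-fold or more below, PRPF8, SF3B1, SF3B2 and SRSF5 (6.67%, against 7.71%). Replicate 3 was the least apart, with 0 members 2-fold above and 0 below, against 0.817% and 2.62% of all rows. These counts rest on single libraries and carry no test. Fibroblast, cumulus and sperm marker sums, given above, were also highest in replicate 2, at under 20 TPM each. So was the median of all 31304 rows, at 0.131, 0.312 and 0.138 TPM in replicates 1, 2 and 3. The part of the marked cell types in these differences was not tested. In whole-embryo libraries fewer cells of a kind and less RNA per cell cannot be told apart. The scaling matters for them: with median-of-ratios scaling the median row of replicate 2 moved from 0.19 to -0.14 and the members' median from 0.01 to -0.31, and of the 15 members 10 were still 2-fold apart and 13 had the same highest library.

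**Figure D4:**
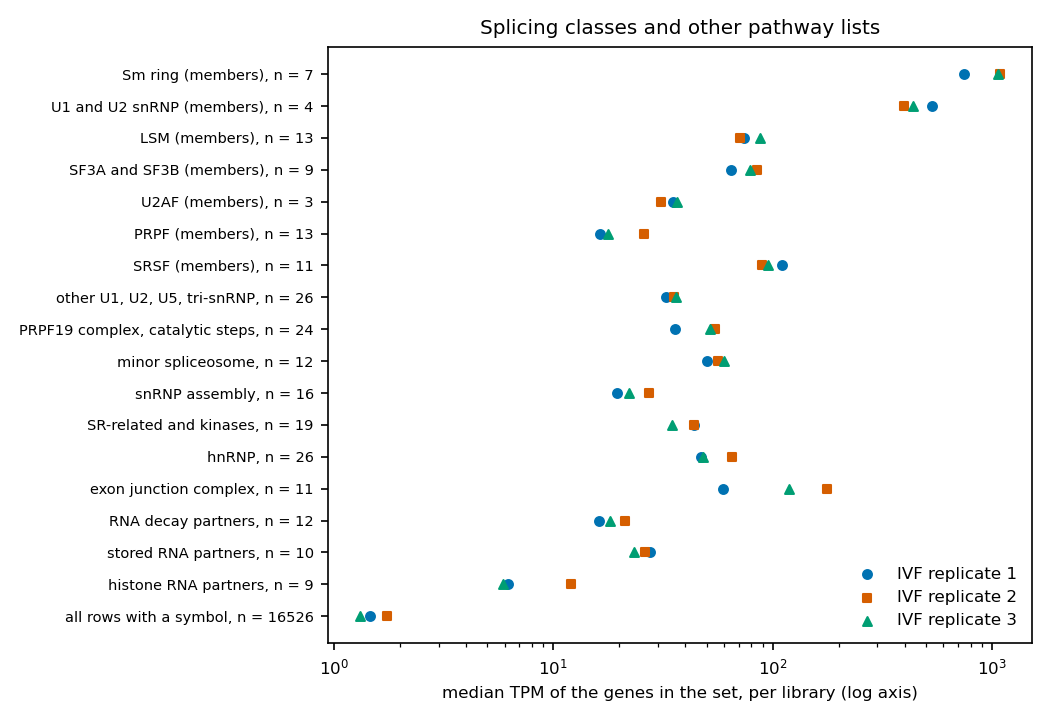
Median TPM, on a log axis, of the members by role and of 10 fixed lists of other splicing and RNA genes, with a point for each IVF library, beside all rows with a gene symbol. The Sm ring stands highest at 749 to 1089 TPM and the histone RNA partners lowest of the lists at 5.90 to 12.0 TPM.

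Other genes of the splicing pathway were taken from lists that the naming rule does not touch. Further U1, U2, U5 and tri-snRNP proteins had a median of 34.9 ± 1.88 TPM (SD, n = 3), with all 26 at 1 TPM or more in every library, and were led by SNU13, PHF5A and SNRNP27 (288 ± 77.1). Proteins of the PRPF19 complex and the catalytic steps had a median of 47.4 ± 9.96 TPM, with 24 of 24 at that level. Their most abundant genes were CWC15 (765 ± 49.1), BCAS2 (459 ± 112) and SYF2 (411 ± 13.3). In this list, counting genes at 5 TPM or more by mean, 16 of 22 were highest in replicate 2, against 49.3% of all rows.

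The minor spliceosome, which removes a rare class of introns with its own snRNAs, had a median of 55.5 ± 4.88 TPM and 11 of 12 genes at 1 TPM or more throughout. SCNM1 was at 301, 505 and 543 TPM, ZCRB1 at 274, 458 and 356 TPM, and SNRNP25 at 142, 131 and 183 TPM. Genes that assemble snRNPs were lower than the Sm proteins they load, with a median of 23.0 ± 4.03 TPM and 16 of 16 at 1 TPM or more. Their leading genes were the export adaptor PHAX (126 ± 33.1), the cap methylase TGS1 and the SMN complex subunit GEMIN7. No row named SMN1, SMN2 or SMN was in the table.

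SR-related proteins and kinases, the SR regulation list, had a median of 40.7 ± 5.19 TPM with 19 of 19 at 1 TPM or more. The highest were TRA2B, RBM39 (133 ± 36.6) and the SR kinase CLK4 (129 ± 11.9). Counted the same way, 15 of 18 were highest in replicate 2, where 49.3% of all rows were. The hnRNP genes, whose proteins often oppose SR proteins, had a median of 53.4 ± 10.03 TPM and 25 of 26 at 1 TPM or more. HNRNPAB (517 ± 82.3), HNRNPDL (388 ± 39.3) and HNRNPA2B1 (377 ± 129) were the highest, and HNRNPLL was the one below 1 TPM by mean, at 0.664 ± 0.614. Among them 18 of 24 were highest in replicate 2, against the same 49.3%. Highest and lowest library were 2-fold or more apart in 8 of 24 (33.3%), which is near the 31.6% of all rows. The exon junction complex, which marks joined exons, had a median of 59.2, 176 and 119 TPM in replicates 1, 2 and 3, led by SAP18 (2393 ± 508), MAGOH and EIF4A3 (775 ± 170). Its median, the middle value of 11 genes, was the least even of the lists between libraries. Its summed TPM was 5331, 6091 and 6240, and 3 of 10 genes (30.0%) were 2-fold or more apart. Counted the same way, replicate 2 was highest in 12 of 25 further snRNP proteins and 6 of 11 minor spliceosome genes. It was highest in 9 of 14 assembly genes, 5 of 10 exon junction genes and 4 of 7 histone RNA partners. All these counts use TPM as deposited and stand beside 49.3% of all rows.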

How the data were processed

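Deposited values are TPM, computed by the authors for 31304 rows, with 1 column per library. The submitters' processing notes name fastp 0.23.4 and HISAT2 2.2.1. The sources used here do not name the sheep genome build, annotation or counting tool. A column was given to a sample only where their names match, which held for 3 IVF columns. The table holds 4 further columns of per-sample values under names that are not labels, and these were left unused. Members and lists were chosen with earlier results of these data known.

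The ARS-UI_Ramb_v3.0 gene table held 28819 of 31304 row names and 60 of 60 members. Its build may differ, so it served only for spans and overlaps. Differences on the log2(TPM + 1) scale are understated for low genes. Counts of 2-fold differences use rows averaging 5 TPM or more. The text names the members, the fixed pairs, and the leading genes of each fixed list by mean. It also names some further genes of these lists, such as DDX6, DCP1B and ZAR1, which were not leading ones. Of the members, 1 and its pair are not reported here singly. The row SRSF8 of 1 pair was not in the table. The step that counts 2-fold differences was tested on simulated data. The simulated noise was far below the spread of these libraries, so that test checks the counting and not the rate of false calls. The alternatives tried were other thresholds, pseudocounts, filters and scalings, and each library left out. Scripts ran in Python 3.11.15, numpy 2.4.6, matplotlib 3.10.9 and pandas 2.3.3.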

Additional observations from a re-analysis of the deposited data

How the results depend on the processing

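No paired analysis was possible because 1 group was used. Leaving out members wholly inside another gene was not run, since there were 0. Without mitochondrially encoded and ribosomal protein rows all levels are scaled up by construction: the members' median became 95.9 TPM and their share 2.26%, and medians became 535 for U1 and U2 proteins, 91.2 for LSM, 89.8 for SF3, 40.3 for U2AF and 115 for SR proteins, and 41.1, 65.3, 27.1, 47.9, 21.8 and 30.4 for the lists of other snRNP proteins, minor spliceosome, snRNP assembly, SR regulation, decay partners and storage partners. Without members that overlap a protein-coding gene, chosen after seeing the data, medians were 707 for U1 and U2 proteins, 68.0 for LSM and 148 for SR proteins, fewer genes being used. The count of 15 members 2-fold apart ranged from 11 to 18 under pseudocounts, filters and scalings. It ranged from 1 to 15 with a library left out. The members changed too: 10 of the 15 stayed with median-of-ratios scaling and 13 with quantile normalization. Without mitochondrially encoded and ribosomal protein rows 13 stayed. The 3 members 2-fold higher in replicate 2 became 5 with a pseudocount of 0.1, 1 with a pseudocount of 5, 0 with median-of-ratios scaling, 1 with quantile normalization and 5 without mitochondrially encoded and ribosomal protein rows. The 1 member 2-fold lower became 4, 3 and 0 under these 3 scalings (the cause was not tested). The 17 pairs 2-fold apart stayed at 17 with any library left out and were 16 with a pseudocount of 5. PRPF3 minus PRPF4 lay between -0.37 and 0.12 with a library left out. In all, 132 values were recomputed under settings that kept every library. Of these, 100 stayed within 1 SD or, for counts, within 1.5 times, 32 moved further and 0 reversed. Medians, shares and counts cannot turn negative, and a pseudocount cannot change a pair's sign within a library. The 0 was therefore largely fixed in advance. Of 135 values with a library left out, 2 moved and 2 reversed in sign. Without the depth, a low TPM may be undersampling.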
